A study of Gallus gallus with 4 samples.

Results

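The units described here are the transcription units (TUs) of the chicken Z chromosome that lie outside a distal array of reverse-strand units. A TU is 1 gene of a StringTie assembly made from RNA of growing oocytes at the lampbrush chromosome (LBC) stage, and its values are those of its most abundant transcript by FPKM (fragments per kilobase of exon, scaled to the number of fragments in the run). A TU was taken when it lay on Z with its midpoint outside positions 75990615 to 83875883 of the assembly ASM2420605v2. The rule used position and no measured level. It kept 854 of the 1097 TUs of Z, out of 22884 TUs in the whole assembly, and the other 243 TUs of Z lay in the array.

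The oocytes came from wild-type hens. Strand-specific poly(A) libraries came from 2 isolated nuclei and from the ooplasm, the cytoplasm of the oocyte, in 2 further samples. Reads had been pooled with earlier total RNA of oocyte nuclei before the assembly, and it is not stated whether the ooplasm reads were part of the pool. Each TU therefore has 1 value without replicates, the depth per library is unknown, and no test was made. Comparisons with chromosomes 3, 4 and 5 are descriptions of a single assembly, and the intervals given cover counting only, since neighbouring TUs are not independent.

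Lampbrush chromosomes are meiotic chromosomes that stay in a long diplotene stage, in which active TUs extend as lateral loops from compact chromomeres. Nascent RNA lies along each loop, and long loops can carry a single long TU or several TUs in a row. Hens are the heterogametic sex in birds and carry a Z and a W, so the Z of an oocyte has no Z homologue to pair with, whereas the autosomes form bivalents of homologues.

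Outside the array, Z was the chromosome with the most thinly spread TUs. Over 79.75 Mb there were 10.71 TUs per Mb, against 18.51 on chromosome 3, 21.82 on chromosome 4 and 24.58 on chromosome 5. Z ranked last of 39 chromosomes (38 autosomes and Z, W left out), and the autosome nearest to it was chromosome 29 with 14.20 TUs per Mb. Chromosomes 1 and 2 had 14.65 and 14.41. Summed FPKM per Mb was also lowest on Z, at 94.48, but chromosomes 38 and 2 were close to it, at 96.09 and 96.68. Chromosome 1 had 117.3, and chromosomes 3, 4 and 5 had 135.8, 155.3 and 194.2. The median level of a TU was not low in the same way. The median FPKM of the 854 TUs was 2.175 (95% interval of the median 1.848 to 2.681), against 1.808 (1.704 to 1.893) over the 5534 TUs of chromosomes 3 to 5.

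Since the forward and reverse reads had been assembled in separate runs, the level was also expressed as the FPKM percentile of a TU among all TUs of its run. The median TU of Z stood at percentile 51.82 (48.15 to 56.32) and that of chromosomes 3 to 5 at 47.52 (46.41 to 48.62). The intervals overlapped, and Z ranked 22 of 39 from the highest, so its TUs sat in the middle of the chromosomes. Chromosomes 3, 4 and 5 had medians at percentiles 46.50, 46.06 and 51.22. Under an FPKM of 1 were 286 TUs of Z (33.49%, against 36.20%, 35.67% and 32.10%), and at 50 or more were 29 TUs (3.396%, against 2.356%, 2.408% and 2.259%). Few TUs of Z held most of its signal. The top 9 TUs carried 20.56% and the top 85, or 10% of the TUs, carried 59.31% of the summed FPKM of Z, against 62.34%, 62.74% and 58.09% for the top 10% of chromosomes 3, 4 and 5.

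The TU with the highest FPKM on Z was FORW.11145 (chrZ:27684274-27699130, forward strand), at an FPKM of 404.0. It had 18 exons over 14.86 kb, and its read coverage rose from 879.0 reads per base on the first exon to 5545 on the last, with a highest value of 6507. The next was REV.10885 (chrZ:17747646-17749292, reverse strand) at 199.3, a compact unit of 3 exons over 1.647 kb of which 90.95% was exon. The third, REV.11166 (chrZ:72422056-72510115, reverse strand), stood at 179.8 and had 23 exons over 88.06 kb. These leaders thus differed widely in size. REV.10880 (chrZ:15750339-15774967) reached 171.9 with 11 exons over 24.63 kb. FORW.11297 (chrZ:59168354-59399861) reached 166.1 although it spanned 231.5 kb, only 1.824% of which was exon. The remaining 5 of the 10 highest were REV.10866, FORW.11330, REV.10949, FORW.11205 and REV.11071, with FPKM values of 117.0, 111.6, 108.5, 90.83 and 87.95. Both strands were represented among the 10, and each of the 10 had at least 3 exons.

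Coverage was uneven along these units. In REV.11166 the first exon had 2197 reads per base and the last 1941, while the lowest of its exons had 883.4. In REV.10880 the first exon had 705.4 and the last 1758. In FORW.11330 they had 300.9 and 1440. All of the 10 but REV.10885 and REV.11166 had a better covered last exon. Over the 528 TUs of Z with 3 or more exons, the last exon was covered more deeply than the first in 66.86%, with a median ratio of 1.648. On chromosomes 3 to 5 this held for 59.81% of 2777 TUs, with a median ratio of 1.361. The poly(A) selection and the total RNA in the pool cannot be told apart in these values.

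The TUs of Z had a somewhat lower median span than those of chromosomes 3 to 5 and a longer upper tail. The median span was 11.78 kb (95% interval 10.35 to 13.37), against 13.65, 13.17 and 14.62 kb on chromosomes 3, 4 and 5. Over these 3 chromosomes together it was 13.73 kb (13.04 to 14.41), so the intervals overlapped slightly. The upper quartile, at 34.26 kb, was the highest of the 39 chromosomes, followed by chromosome 10 at 34.03 kb. TUs of 100 kb or more numbered 57, or 6.674% of the TUs of Z, against 4.471%, 3.111% and 4.654%. Of these 57, 12 reached 200 kb.

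The longest unit was REV.10984 (chrZ:36461563-36850248), which spanned 388.7 kb with 25 exons and had an FPKM of 2.763. A single intron of 256.9 kb took up most of its length. REV.10896 (chrZ:19269211-19605728) followed with 336.5 kb, an intron of 217.7 kb and an FPKM of 2.862. Both stood near the median of Z in level, so neither was among the 10 most active. FORW.11152 spanned 305.2 kb at an FPKM of 12.56, and FORW.11108 spanned 288.1 kb at 22.21. REV.10962, FORW.11301, FORW.11385, REV.10881 and REV.10824 spanned 283.9, 263.9, 242.3, 213.4 and 209.4 kb. FORW.11385 was built differently from the others, with 4 exons and an intron of 225.7 kb in 242.3 kb, at an FPKM of 1.277. FORW.11297 was the only unit among both the 10 longest and the 10 most active.

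Among the 57 long units of Z, 16 (28.07%) had an FPKM of 10 or more, and their median was 4.558. On chromosome 3 there were 30 such units of 93 (32.26%, median 5.467), on chromosome 4 there were 11 of 62 (17.74%, median 3.614) and on chromosome 5 there were 13 of 68 (19.12%, median 3.039). The value of Z lay between those of the 3 autosomes. The most active long units after FORW.11297 were REV.10824 (chrZ:7986510-8195889) at an FPKM of 60.63, FORW.11000 (chrZ:1587401-1735029, 147.6 kb) at 58.06 and REV.11070 (chrZ:51473456-51604193, 130.7 kb) at 32.93. FORW.11301 (chrZ:59694785-59958640) came next at 29.58 and lay on the same strand and in the same window as FORW.11297.

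**Figure D1:**
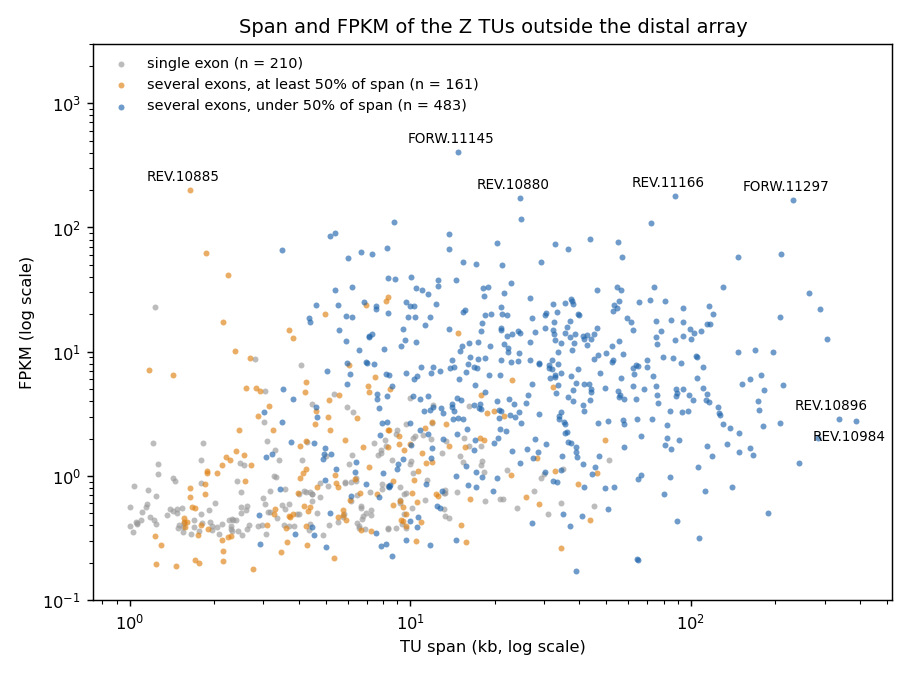
Span in kb (x axis, log scale) and FPKM (y axis, log scale) of the 854 TUs of Z outside the array, 1 point per TU, coloured by exon makeup. Single-exon TUs lie mostly at low FPKM, whereas the labelled leaders run from 1.647 kb (REV.10885) to 231.5 kb (FORW.11297) and the 2 longest TUs have FPKM values of 2.763 and 2.862.

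A clearer difference from chromosomes 3 to 5 lay in the makeup of the TUs. Among multi-exon TUs, the median share of the span that was exon was 22.16% on Z (95% interval 19.52 to 24.69) and 43.07% on chromosomes 3 to 5 (41.14 to 45.08), with 40.19%, 46.66% and 41.33% on the single chromosomes. These TUs had a median of 7 exons on Z, and of 4, 4 and 5 on chromosomes 3, 4 and 5. Multi-exon TUs that were at least 90% exon numbered 32 on Z (4.969% of its 644 multi-exon TUs), against 245 (16.41%), 245 (17.58%) and 148 (13.68%). The median intron was 1.131 kb on Z and 1.051, 0.924 and 0.8655 kb on the others. Z was not at the end of the ranking here, since it stood 35 of 39 from the highest in exon share. Single-exon TUs were 210 on Z, or 24.59% (95% Wilson interval 21.82 to 27.59), against 28.22%, 30.06% and 25.94%.

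The classes of exon makeup differed in level and were thinned to different degrees on Z. TUs whose exons filled under 50% of the span had 6.056 members per Mb on Z, not far below the 7.468 on chromosome 3 and the 8.025 on chromosome 4, while chromosome 5 had 10.60. Single-exon TUs had 2.633 per Mb on Z, against 5.225, 6.558 and 6.376. Multi-exon TUs that were at least 90% exon had 0.4012 per Mb, against 2.181, 2.682 and 2.490. TUs with 50 to 90% exon, the remaining class, had 1.618 per Mb, against 3.641, 4.555 and 5.114. Relative to chromosomes 3 and 4, the low TU density of Z thus lay mainly outside the class with exons under 50% of the span. The class with exons under 50% of the span made up 56.56% of the TUs of Z and 40.34%, 36.78% and 43.12% of those of chromosomes 3, 4 and 5.

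Within that class, the level on Z was like that on the autosomes. Its 483 TUs had a median FPKM of 6.058, and those of chromosomes 3, 4 and 5 had medians of 6.034, 6.199 and 6.895. All multi-exon TUs had a median of 4.047 on Z and of 2.846, 2.743 and 3.203 on the others, and single-exon TUs had 0.6353 against 0.6511, 0.6871 and 0.6896. The median of all multi-exon TUs was thus higher on Z, while that of the class with exons under 50% of the span was not. By span, the median FPKM was higher on Z in most ranges but not in all. Between 20 and 50 kb, the 173 TUs of Z had a median FPKM of 5.371, and 6.358% of them had a single exon, whereas the 1349 TUs of chromosomes 3 to 5 had a median of 2.470 and 17.20% had a single exon. Between 50 and 100 kb the medians were 6.348 and 2.922, with 1.205% and 9.302% of the TUs having a single exon. At 100 kb or more they were 4.558 on Z and 3.820 on chromosomes 3 to 5. Between 10 and 20 kb they were 2.900 and 2.276, and between 2 and 5 kb 0.7399 and 0.6655. In the remaining ranges Z was lower. Between 5 and 10 kb the medians were 1.465 on Z and 1.727 on chromosomes 3 to 5, with single-exon shares of 32.37% and 28.43%. Below 2 kb the medians were 0.4869 and 0.5052, although fewer TUs of Z had a single exon (64.79% against 79.41%).

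The units with the most exons were all longer than the median TU of Z. FORW.11186 (chrZ:38985692-39091165) had 72 exons over 105.5 kb, and REV.11106 (chrZ:58362205-58524539) had 65 exons over 162.3 kb. FORW.11036 (chrZ:10000628-10031866) held 57 exons in 31.24 kb. REV.10860 had 51 exons and REV.11142 had 50. The FPKM of these 5 units lay between 3.558 and 7.873, all above the median of all TUs of Z, 2.175. REV.11142, at 3.558, was below the median of the multi-exon TUs of Z, 4.047. Most TUs had few assembled isoforms: 544 had a single transcript and 310 (36.30%) had more, against 40.67%, 39.54% and 40.38% with more than 1 on chromosomes 3, 4 and 5. REV.11144 had the most transcripts, 9, followed by FORW.11130 with 8, FORW.11006 and REV.11018 with 7 each, and 4 TUs, among them REV.10887, had 6.

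Outside the array, Z held nearly equal numbers of TUs of both directions, with 432 forward and 422 reverse TUs (50.59% forward, 95% Wilson interval 47.24 to 53.93). With the reverse-strand array included, the forward share was 39.56%. Along the chromosome, 15 full windows of 5 Mb held 27 to 71 TUs each, with a median of 50. Every one of them held fewer TUs than the poorest window of chromosomes 4 and 5, which had 77. On chromosome 3, the windows held 51 to 133 TUs, and 8 of the 15 windows of Z lay under the lowest of these.

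The level of the TUs changed along Z in broad stretches. In the 6 windows from the start to 30 Mb, the median FPKM was between 3.264 and 3.953. In the 7 windows from 30 to 65 Mb it was between 1.125 and 2.135, and in the 2 windows from 65 to 75 Mb it was 3.274 and 3.970. The window medians of the middle stretch did not overlap with those on either side. These stretches were drawn after the window values had been seen and are a description. Their medians over TUs were 3.347 (327 TUs), 1.702 (329 TUs) and 3.562 (104 TUs). Single-exon TUs were more frequent in the middle stretch, at 32.22%, than before it (19.27%) or after it (21.15%). The order was the same among multi-exon TUs, with medians of 4.951, 3.540 and 5.866, and the part of the single-exon share in the pattern was not tested otherwise. TUs with an FPKM of 50 or more numbered 14, 8 and 6 in the 3 stretches.

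On the percentile scale, 8 of the 15 windows of Z had a median above 60.25, the highest window median among the 51 full windows of chromosomes 3, 4 and 5. Window medians of FPKM ran from 1.090 to 3.055 on chromosome 3, from 0.9707 to 3.256 on chromosome 4 and from 1.244 to 2.699 on chromosome 5. The lower windows of Z fell inside these ranges, and its upper ones lay above them. The windows of Z held fewer TUs, so their medians were less precise.

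**Figure D2:**
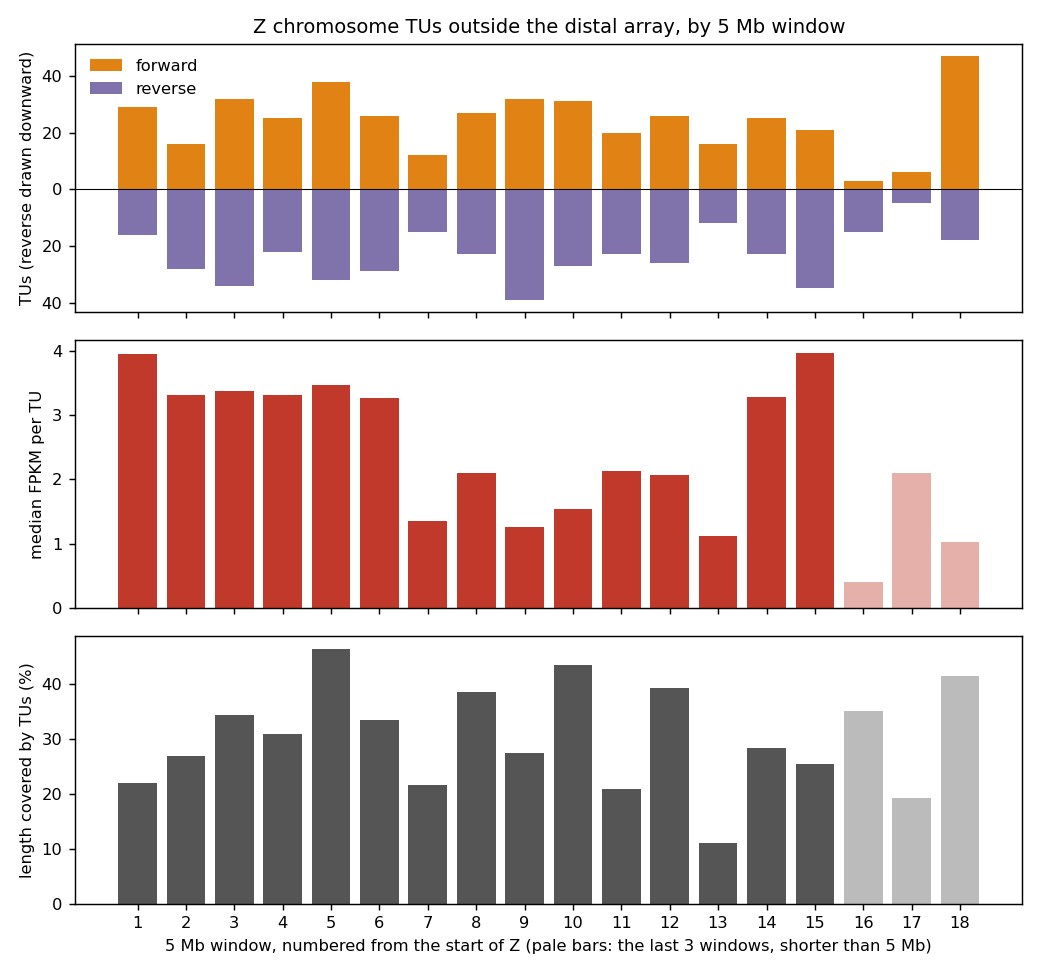
TUs of Z outside the array in 5 Mb windows numbered from the start of the chromosome (x axis), with the number of TUs by strand (top, reverse drawn downward), the median FPKM per TU (middle) and the percentage of the length covered by TUs (bottom). The windows from 30 to 65 Mb have medians of 1.125 to 2.135, below the 3.264 to 3.970 of the full windows on either side. The pale bars are short windows. Those from 75 to 85 Mb are short because the array was left out, and the last because it stops at the last TU of Z.

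The most active unit of a window varied widely in level. In the first, REV.10812 (chrZ:2588402-2632201) had an FPKM of 81.05, followed by REV.10830 with 62.39 from 5 to 10 Mb. From 20 to 25 Mb, FORW.11096 led with 57.38. Several windows of the middle stretch had weaker leaders. REV.10974 led with 33.03 from 30 to 35 Mb, REV.10976 with 27.48 from 35 to 40 Mb and FORW.11240 with 27.89 from 45 to 50 Mb. FORW.11303 reached 67.64 from 60 to 65 Mb, in the window with the lowest median, 1.125. That window also had the smallest covered share, 11.11%, whereas the most covered window, from 20 to 25 Mb, reached 46.49%. Other windows were led by units already described. The short windows near the array were led by REV.11192 with 2.939 and FORW.11370 with 32.36, and the last window by FORW.11411 (chrZ:86617759-86650722) with 73.05.

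TUs next to the array differed by side. The 18 TUs between 75 Mb and the array had a median FPKM of 0.4057 and a median span of 3.853 kb, and 15 of them were on the reverse strand. These values were close to those of the array, whose 243 TUs had a median FPKM of 0.4551 and a median span of 3.156 kb. The 3 forward TUs on this side were REV.11196, REV.11201 and REV.11208. Each had 2 exons and was assembled in the reverse run with a forward splice strand, so its direction is less certain. The 11 TUs within 1 Mb after the array had a median FPKM of 2.101 and a median span of 17.47 kb, and 6 were forward and 5 reverse. All 76 TUs from the array to the end of Z had a median FPKM of 1.092, and 53 were forward. At the bounds set by the rule, REV.11209 (chrZ:75984312-75986464, FPKM 0.2053) was the last TU outside on the left and REV.11210 (FPKM 1.072) the first inside. On the right, REV.11182 (FPKM 4.587) was the last inside and FORW.11366 (chrZ:83945057-83977503, FPKM 17.39) the first outside. With TUs within 1 Mb of the array left out, the median FPKM of Z was 2.337, the TU density 10.61 per Mb and the TU-free share 69.58%, each close to its value with them.

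The space between TUs was wide. No TU of either strand covered 69.66% of Z, against 53.47% of chromosome 3, 48.87% of chromosome 4 and 38.38% of chromosome 5. In this share Z ranked 4 of 39 from the highest, which was 87.16% on chromosome 31. Chromosomes 1 and 2 were nearer to Z than chromosomes 3 to 5, at 64.63% and 62.47%. The median TU-free stretch was 21.05 kb, the longest median of the 39 chromosomes, followed by 19.45 kb on chromosome 2. Stretches of at least 100 kb numbered 157 on Z and added up to 42.86 Mb, or 53.74% of its length. This share was 26.56%, 17.39% and 9.230% on chromosomes 3, 4 and 5, and Z ranked 3 of 39. Stretches of at least 200 kb numbered 89, against 47, 15 and 4. This made 11.16 per 10 Mb, more than on any autosome (at most 9.826, on chromosome 32).

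The widest stretch lay at chrZ:6268667-7548690 and measured 1280 kb. It lay between REV.10819, a single-exon TU with an FPKM of 0.3672, and REV.10820, which spanned 182.3 kb with an FPKM of 4.888. The second, at chrZ:3387078-4498229, measured 1111 kb and lay between REV.10811 (FPKM 0.5510) and REV.10816 (FPKM 8.638). Both lay in the first 10 Mb, among windows with high medians. The third, of 883.2 kb, lay between REV.11152 (FPKM 0.4389) and REV.11153 (FPKM 0.5434), and the fourth, of 865.3 kb, between FORW.11325 (FPKM 9.105) and REV.11133 (FPKM 2.666). The fifth, of 719.7 kb, began at the end of FORW.11301 and ended at FORW.11298, a single-exon TU with an FPKM of 0.9029. The widest stretch of chromosome 3 was longer than any of these, at 1519 kb. Chromosomes 1 and 2, which are longer than Z, had more stretches of at least 200 kb, 157 and 112. A further count kept only TUs with exons under 50% of the span, a split chosen after the values were seen. Z then had 77 stretches of at least 200 kb and chromosomes 3, 4 and 5 had 111, 90 and 47. These numbers were not scaled to the lengths, which were 79.75 Mb for Z and 112.3, 91.33 and 59.44 Mb for the others. The higher number on Z than on chromosomes 3 and 4 was not seen in that class.

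At their edges, the 89 wide stretches were bounded by a forward TU on the left and a reverse TU on the right in 34 cases, which means that both TUs pointed into the stretch. Both pointed away from it in 15 cases, and both had the same direction in 40, of which 18 were forward and 22 reverse. Z had 638 pairs of neighbouring TUs of at least 5 kb. Of these pairs, 178 pointed towards each other, 178 pointed away from each other and 282 had the same direction. The TUs at the edges could be shorter than 5 kb, so these pairs are an unlike set. Whether edges that point into a stretch were in excess was not tested. No count at the edges is given for chromosomes 3, 4 and 5, so it is not known whether Z differs in this. The 159 TUs at these edges had a median FPKM of 1.491, against 2.669 for the other 695 TUs of Z.

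**Figure D3:**
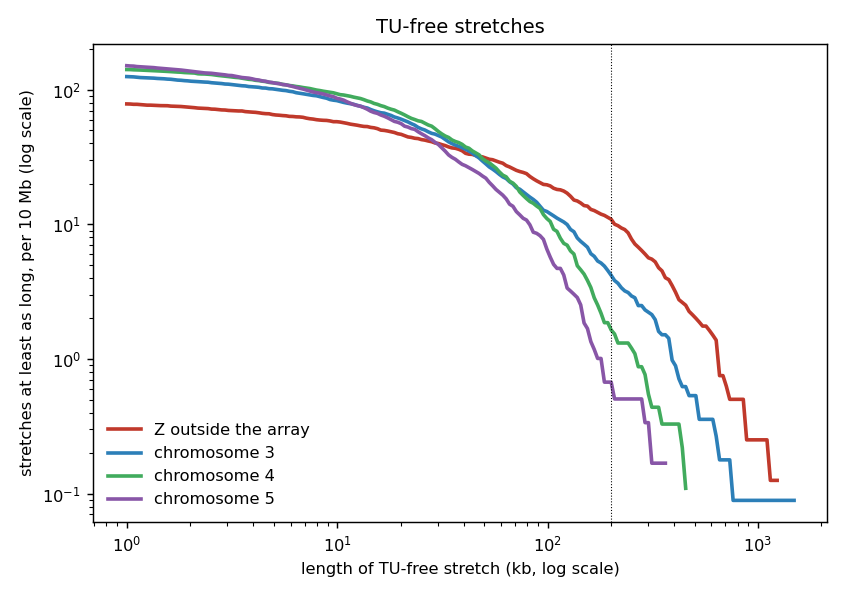
Number of TU-free stretches per 10 Mb (y axis, log scale) that are at least as long as the length on the x axis (kb, log scale), for Z outside the array and chromosomes 3, 4 and 5, with the dotted line at 200 kb. At 200 kb, Z has 11.16 stretches per 10 Mb and chromosomes 3, 4 and 5 have 4.183, 1.642 and 0.6729.

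The orientation of neighbours was taken among the 640 TUs of at least 5 kb, which formed 638 pairs outside the array. A pair is convergent when the TUs point towards each other, divergent when they point away from each other and co-directional when they lie on the same strand. On Z there were 178 convergent, 178 divergent and 282 co-directional pairs. The co-directional share was 44.20% (95% Wilson interval 40.39 to 48.08), against 60.91%, 61.35% and 60.47% on chromosomes 3, 4 and 5. Part of this difference was set by the rule, since the array left out is the longest same-strand run of Z. With the array included, the share of Z was 49.72%, while nothing had been left out of the autosomes. Only chromosome 29 had a lower share, at 43.75%. Of 358 runs of neighbours on the same strand outside the array, 211 (58.94%) consisted of a single TU. No such share is given for other chromosomes, so it is not known whether Z differs in this. The longest of these runs held 13 TUs.

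The size of the difference in co-directional share varied with the TUs kept. Among multi-exon TUs the co-directional share was 46.67% on Z (42.50 to 50.88), against 58.49%, 57.80% and 57.71%, and among TUs with an FPKM of at least 1 it was 46.57% (42.23 to 50.97), against 58.95%, 56.37% and 56.43%. Z was thus lower under both filters. The array was left out of Z in every filtered share of this paragraph, and no filtered share with it is given. Among TUs with exons under 50% of the span, in contrast, the co-directional share was 48.80% on Z (44.24 to 53.37) and 51.26%, 51.32% and 48.87% on chromosomes 3, 4 and 5, with overlapping intervals. The TU-free share of these TUs was 72.82% on Z, against 68.04%, 69.90% and 59.00%. With only single-exon TUs of at least 5 kb ordered, 48 of 96 pairs on Z were co-directional (95% Wilson interval 40.19 to 59.81%), against 58.64%, 59.82% and 63.92%.

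**Figure D4:**
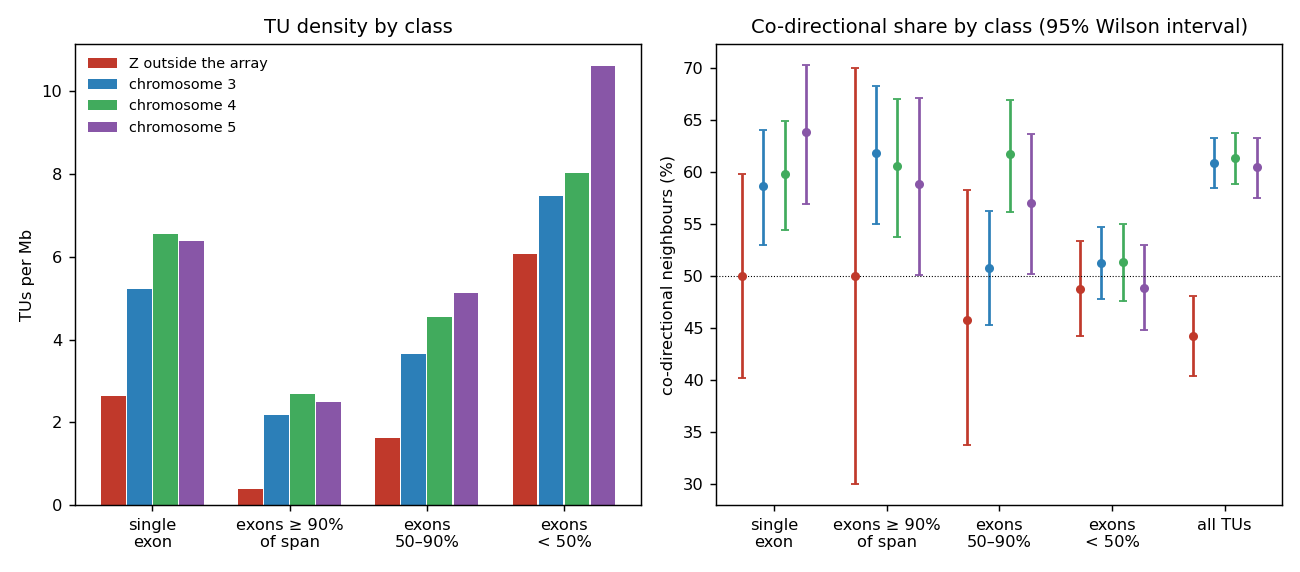
TUs per Mb by class of exon makeup (left) and share of co-directional neighbours among TUs of at least 5 kb, by class and for all TUs (right, points with 95% Wilson intervals that cover counting only), for Z outside the array and chromosomes 3, 4 and 5. Z has 0.4012 TUs per Mb of the class that is at least 90% exon, and its co-directional share is 44.20% over all TUs but 48.80% among TUs with exons under 50% of the span, near the 48.87% to 51.32% of the autosomes.

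The gaps between neighbours were wider on Z for each orientation. The median gap of convergent pairs was 22.51 kb, against 3.640, 3.216 and 2.597 kb on chromosomes 3, 4 and 5. The median gap of divergent pairs was 10.32 kb, against 2.144, 2.808 and 1.139 kb. The median gap of co-directional pairs was 28.81 kb, against 18.51, 17.48 and 12.23 kb. Divergent pairs were thus the closest on Z, as they were on chromosomes 3, 4 and 5. Convergent pairs of Z were nearer in spacing to co-directional ones than on those chromosomes. Overlapping pairs entered these medians as negative gaps, and overlaps of opposite strands were rarer on Z, as given below. In convergent gap Z ranked 3 of 39, and the widest median was 46.03 kb on chromosome 31. TUs of opposite strands overlapped in 52 pairs of Z, or 14.61% of its convergent and divergent pairs (95% Wilson interval 11.32 to 18.65), against 31.96%, 33.45% and 33.94%. Of these 52 overlaps, 17 were convergent and 35 divergent.

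Some neighbours were both active. The convergent pair whose weaker member was highest joined FORW.11067 (FPKM 31.57) and REV.10880 (171.9) over a gap of 544.3 kb. FORW.11145 converged with REV.10950 (26.98) over 55.19 kb, and FORW.10997 (24.27) with REV.10806 (38.19) over 62.71 kb. These leading convergent pairs were thus far apart. Among divergent pairs, REV.11166 and FORW.11352 (26.50) were separated by 15.48 kb, and REV.11061 (20.24) and FORW.11251 (24.39) by 92.11 kb. REV.10901 (22.04, chrZ:20501671-20509243) and FORW.11097 (33.22, chrZ:20509683-20583645) started only 0.439 kb apart.

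The longest run of neighbours on the same strand held 13 forward TUs between FORW.11368 and FORW.11391 (chrZ:84389589-86020726), to the right of the array. All were weak, with FPKM values from 0.4426 to 2.019 and a median of 0.8208. With TUs under 5 kb counted, the run held 22 TUs. The next longest runs had 8 and 7 reverse TUs, and the run of 7 (chrZ:32191453-33258968) had a median FPKM of 9.001. The longest runs of chromosomes 3, 4 and 5 held 20, 20 and 16 TUs. These cannot be set against the 13 of Z, because the longest run of Z is the array itself and was left out.

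A small number of TUs had a splice strand opposite to the run in which they had been assembled. On Z these were 19 multi-exon TUs (2.225% of its TUs), against 0.8173%, 1.405% and 2.053% on chromosomes 3, 4 and 5. The share was not high among all chromosomes, since Z ranked 30 of 39 from the highest and the median over the autosomes was 2.937%. Of the 19, 14 had all their introns in common with a TU of the other run, and their FPKM was 0.1654% to 40.15% of that partner, with a median of 1.866%. REV.10946 (FPKM 4.428) and REV.10947 (4.190) lay in this way inside FORW.11145 (404.0), and FORW.11081 (0.3298) inside REV.10885 (199.3). The other 5 shared no intron with a TU of the other run, and the strongest of them was REV.11069 at 7.117. The 14 were counted as members like the rest. Of the 210 single-exon TUs, which carry no splice strand, 17 (8.095%) lay inside a TU of the other run.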

How the data were processed

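Per the methods of the study, the authors trimmed reads with cutadapt, aligned them with HISAT2 to ASM2420605v2, split them by strand, marked duplicates with SAMtools and merged the unique reads from every experiment, together with earlier total RNA data. StringTie 2.2.2 was run once per strand. Per the file header it required a coverage of 1.2 (multi-exon) or 3.5 (single exon) and a length of 1000 bp, so weaker or shorter transcripts are missing. The deposited values are FPKM, TPM and read coverage per transcript, scaled within each run (TPM sums of 997030 and 998714), and exon positions. Coverage per FPKM was 10.61 and 10.51 in the forward and reverse run, so the FPKM of both runs was pooled. FPKM of spliced RNA does not measure the rate of transcription.

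Here, direction was read from the strand column, or from the run where none was given. Density and TU-free share used the length from the first to the last TU without the array. Neighbours were ordered by midpoint. Intervals are Wilson intervals for shares and order-statistic intervals for medians (95%), computed with Python 3.11.15, NumPy 2.4.6 and SciPy 1.17.1, and figures with matplotlib 3.10.9. The functions were tested on simulated data. TUs named are the 10 highest in FPKM, the 10 longest, the 5 with most exons and the 5 with most transcripts (the fifth place was shared by 4 TUs, of which the first along Z is named), the leader of each window, the flanks of the 5 widest TU-free stretches, the 3 convergent and 3 divergent pairs with the most active weaker member, the longest run and the TUs next to the array. The most active long units, the further runs and the TUs on the strand opposite to their run were added after their values were seen. The members and lists were chosen with earlier results of these data known. No genome or gene annotation of this build was used here, so TUs carry the identifiers of the assembly and no sequences are given.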

Additional observations from a re-analysis of the deposited data

How the results depend on the processing

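Over 68 alternatives to 8 results, 47 stayed inside the interval of the reported value (within 1.5 times for density and TU-free share), 19 moved and 2 reversed. The limit for the TU-free share was too wide to show a change, and its alternatives ran from 67.76% to 73.17%. The median FPKM moved from 2.175 to 3.547 with TUs of at least 5 kb, 4.047 with 2 or more exons, 3.016 with FPKM summed over transcripts, 1.688 with their mean and 1.277 with the array included. The median span moved from 11.78 kb to 18.84 with TUs of at least 5 kb, 17.68 with 2 or more exons, 18.84 with an FPKM of at least 1 and 8.821 with the array. The single-exon share moved to 15.31% (at least 5 kb) and 10.39% (FPKM of at least 1), and the forward share to 39.56% with the array. TU density moved to 7.122 per Mb with an FPKM of at least 1, and to 5.414 and 5.304 in the forward and reverse run alone, each of which holds only its own TUs. The co-directional share moved to 49.72% with the array and 48.17% with a minimum span of 10 kb. The median percentile of Z minus that of chromosomes 3 to 5 was 4.308 and reversed to -7.961 with the array. Restriction to TUs with exons under 50% of the span, chosen after seeing the data, gave a median FPKM of 6.058, a co-directional share of 48.80% and a reversed difference of -0.2205. Orientation by run, also added later, left the co-directional share inside its interval.

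No paired analysis was possible because reads were pooled before assembly and the values carry no sample. For the same reason no replicate was left out and the spread between oocytes is unknown. Transcripts under the coverage minima are not in the assembly.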
